A study of Homo sapiens with 4 samples.

Results

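The peaks of the histone mark H3K27ac were examined at 10 genes of 1 functional group, the annexin genes ANXA1, ANXA2, ANXA3, ANXA4, ANXA5, ANXA6, ANXA9 and ANXA11 and the giant scaffold genes AHNAK and AHNAK2, out of 19970 protein-coding genes. The members were chosen by name, with earlier results of these data known. ANXA9 and AHNAK2 were chosen by their values. Peaks of the 2 Hs578T libraries came within 1 kb of their start sites, and peaks of the MDA-MB-231 libraries did not. That contrast is therefore given as a description, without a test. H3K27ac had been profiled by chromatin immunoprecipitation and sequencing (ChIP-seq) in 4 libraries, 2 replicates each of MDA-MB-231 and Hs578T, which are established human triple-negative breast cancer cell lines. All 4 libraries came from cells kept in serum-free optimem for 8 h, exposed to 10 ng/ml of the cytokine TWEAK over 48 h, and washed free of it 72 h before fixation per the labels, whereas the study's own account of the wash-off is longer. Neither untreated cells nor cells under continued TWEAK were analysed here, so no value below measures an effect of TWEAK.

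Annexins are cytosolic proteins that bind acidic phospholipids in membranes when calcium rises, and they take part in membrane repair, vesicle traffic and the organisation of the cortical cytoskeleton. ANXA2 forms a complex with the small S100 protein S100A10, and AHNAK, one of the largest human proteins, docks onto that complex below the plasma membrane. H3K27ac is an acetylated form of histone H3 that marks promoters and enhancers in use, so its peaks show which control regions of these genes carried the mark, but not how much protein was made.

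One library stood apart from the others before any gene was considered. On chromosomes 1 to 22 and X, 209 peaks were listed for MDA-MB-231 replicate 1, and 43353, 46330 and 44920 for MDA-MB-231 replicate 2, Hs578T replicate 1 and Hs578T replicate 2. These 3 large lists are given in that order wherever 3 values follow each other. None of the 209 peaks lay within 20 kb of any of the 10 gene bodies. MDA-MB-231 is thus represented by replicate 2 alone in what follows, and whether the empty list reflects the library or the cells was not tested. A mean over both lists of that line describes neither: the median covered share of the 10 loci was 12.1% ± 17.1 (SD, n = 2) for MDA-MB-231 and 26.9% ± 3.15 (SD, n = 2) for Hs578T, and without replicate 1 the value for MDA-MB-231 was 24.2%. In each of the 3 large lists all 6 mesenchymal markers (VIM, AXL, CD44, EGFR, ZEB1 and FN1) had a promoter peak, 1 or 2 of 7 receptor or luminal genes did (ERBB2 and EPCAM), and none of 3 blood cell genes did.

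A gene was counted as marked if a peak came within 1 kb of the start of its canonical transcript. No member was marked in MDA-MB-231 replicate 1, where 0.0601% of protein-coding genes were. In MDA-MB-231 replicate 2, 8 of 10 members were marked against 58.1% of genes. In Hs578T replicates 1 and 2, 10 of 10 members were marked, against 58.2% and 56.4% of genes. The missing members in MDA-MB-231 replicate 2 were ANXA9 and AHNAK2, whose selection fixed these counts in part. The 8 members not picked by this readout were marked 8 of 8 times in each large list. They too were chosen with earlier results of these data known, so this count is a description. The pattern for which ANXA9 and AHNAK2 were picked, a marked start in both Hs578T lists and in neither MDA-MB-231 list, was found at 79 genes or 0.396%. At 22 of those 79 genes a peak of MDA-MB-231 replicate 2 nevertheless lay within 2500 bp of the start, and the median distance was 9651 bp. ANXA9 and AHNAK2 are among the 22.

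ANXA9 encodes an annexin whose core repeats have lost the residues that bind calcium in the other family members. The gene lies on chromosome 1 (hg38, 150982249 to 150995634, plus strand), and its canonical transcript starts at 150982292. The base of the start itself lay in no peak of any list. In MDA-MB-231 replicate 2 the nearest large peak, chr1:150971445-150980019, was 8575 bp wide with a fold enrichment of 12.6, and it ended at position −2273 relative to the start, which is 1273 bp outside the window. In Hs578T replicate 1 the same peak was 10871 bp wide (fold enrichment 12.1) and ended at −364, inside the window. In Hs578T replicate 2 it was 6904 bp wide (11.1) and ended at −2750. The edge in MDA-MB-231 replicate 2 thus fell between the edges of the Hs578T replicates. This large peak held the start of the neighbouring gene CERS2, a ceramide synthase gene. Hs578T replicate 2 reached the window only through a separate peak of 220 bp from −377 to −158, with a fold enrichment of 2.89, at percentile 10.2 of its own list, and a −log10 q of 1.77. No base of the ANXA9 gene body was covered in any list.

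The sequence of that 220 bp peak is shown because it alone puts ANXA9 among the marked genes of Hs578T replicate 2. It lies upstream of the gene, at chr1:150981915-150982134 (hg38, plus strand), has a GC content of 59.5%, and holds no AP-1 motif (TGACTCA or TGAGTCA, which are reverse complements). The sequence is therefore all in lower case.
ANXA9 start peak: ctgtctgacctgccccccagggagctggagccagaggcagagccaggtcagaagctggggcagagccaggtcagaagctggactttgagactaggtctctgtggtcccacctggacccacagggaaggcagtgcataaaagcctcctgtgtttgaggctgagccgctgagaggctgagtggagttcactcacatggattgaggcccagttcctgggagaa

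AHNAK2 encodes the large paralogue of AHNAK and lies on chromosome 14 (104937244 to 104978374, minus strand), with its canonical start at 104978374. Here too the start base lay in no peak of any list. The large peak lay downstream of the start, in intron 1, and in Hs578T replicate 1 it also took in the last 34 bp of exon 1. It began at +1521 in MDA-MB-231 replicate 2, which is 521 bp outside the window, and was 10016 bp wide with a fold enrichment of 24.1. It began at +158 in Hs578T replicate 1 (11235 bp, 22.5) and at +2932 in Hs578T replicate 2 (8493 bp, 17.5). In all 3 lists this peak ended within a short stretch, at +11536, +11392 and +11424, and its fold enrichment was at percentile 97.8, 97.4 and 96.5 of the list. As at ANXA9, the edge towards the start in MDA-MB-231 replicate 2 fell between those of the Hs578T replicates, and Hs578T replicate 2 was counted through a separate narrow peak, of 342 bp from +303 to +644 with a fold enrichment of 2.95 and a −log10 q of 1.64. A further narrow region at −2310 to −1693 was called in each of the 3 large lists (3.33, 2.93 and 2.86).

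**Figure D1:**
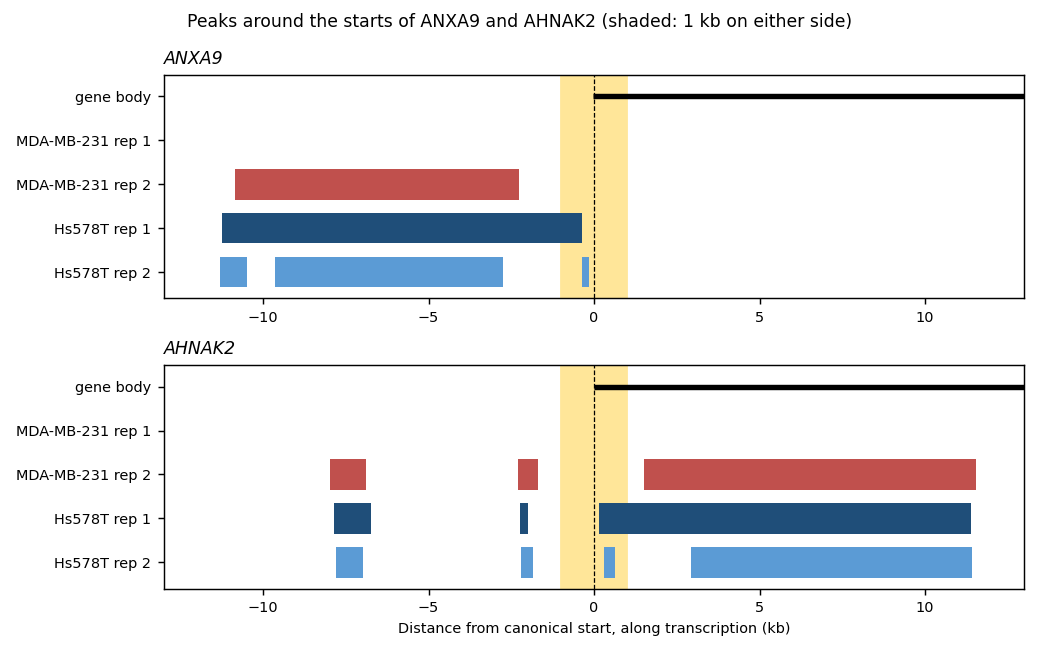
Peaks of the 4 lists (rows) around the starts of ANXA9 and AHNAK2, by distance from the canonical start in kb along the direction of transcription, with the window of 1 kb on either side shaded and the gene body in black. The large peak ends short of the window in MDA-MB-231 replicate 2 and also in Hs578T replicate 2, where only a narrow separate peak lies inside it, and MDA-MB-231 replicate 1 has no peak.

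A second start helps to place the AHNAK2 peak. RefSeq (GRCh38.p14) lists a further AHNAK2 start at 104970507, at +7867 from the canonical one, and it lay inside the large peak in all 3 large lists. The base composition of the start regions differed. The 300 bases around the canonical start (250 before it and 50 from it on) had a GC content of 78.0%, 42 CpG dinucleotides and an observed over expected CpG ratio of 0.972, at percentile 89.1 of 35116 RefSeq promoters. The same stretch at the second start had 6 CpG dinucleotides and a ratio of 0.193, at percentile 20.9. Among all genes, starts inside a peak had a median ratio of 0.851, 0.849 and 0.852 in the 3 large lists, and starts outside had 0.394, 0.397 and 0.429. AHNAK2 thus had the CpG-rich start outside and the CpG-poor start inside the peak. The 250 bases upstream of each start are shown for that contrast (chr14:104978375-104978624 and chr14:104970508-104970757, minus strand, the latter within intron 1), with the central 300 bases of the narrow intron 1 peak of Hs578T replicate 2 (chr14:104977751-104978050, minus strand). Neither the upstream stretches nor the narrow peak holds the AP-1 motif, so no letters are in capitals.
AHNAK2 canonical start, upstream: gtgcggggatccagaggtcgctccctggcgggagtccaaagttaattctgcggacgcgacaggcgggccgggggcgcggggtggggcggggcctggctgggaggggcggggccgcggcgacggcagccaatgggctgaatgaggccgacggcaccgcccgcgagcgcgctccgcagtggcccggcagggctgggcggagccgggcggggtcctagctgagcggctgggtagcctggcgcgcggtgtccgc
AHNAK2 second start, upstream: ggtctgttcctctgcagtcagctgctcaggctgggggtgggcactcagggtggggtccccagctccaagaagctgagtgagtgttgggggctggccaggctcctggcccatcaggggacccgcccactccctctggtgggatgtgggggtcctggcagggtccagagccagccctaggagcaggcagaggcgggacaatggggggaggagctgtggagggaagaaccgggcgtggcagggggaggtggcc
AHNAK2 start peak: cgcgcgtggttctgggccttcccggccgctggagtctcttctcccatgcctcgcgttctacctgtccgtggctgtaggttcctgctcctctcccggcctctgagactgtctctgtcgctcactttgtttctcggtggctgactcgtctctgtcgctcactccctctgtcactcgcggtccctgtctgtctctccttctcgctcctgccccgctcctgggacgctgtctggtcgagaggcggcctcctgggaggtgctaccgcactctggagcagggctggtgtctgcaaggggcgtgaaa

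The other 8 members had their start base inside a peak throughout the large lists. Most of those peaks were wide. Over all genes with a promoter peak the median width was 1792, 1897 and 1804 bp, and the 90th percentile was 4468, 4869 and 4414 bp. ANXA2, the annexin that pairs with S100A10 and binds plasminogen at the cell surface, had promoter peaks of 14790, 15032 and 14878 bp (chromosome 15, start 60397986, minus strand). The widths hardly differed between the lists. ANXA3 (chromosome 4, start 78551770, plus strand) had 12120, 19901 and 19816 bp, so the peak of MDA-MB-231 replicate 2 was shorter than both Hs578T peaks. The ANXA3 peak of MDA-MB-231 replicate 2 ended at +11137, and a further peak followed from +12248 to +18639, close to the ends of the Hs578T peaks at +18779 and +18814. ANXA5, the phosphatidylserine binder used to stain dying cells (chromosome 4, start 121696980, minus strand), had 12512, 13716 and 12268 bp. MDA-MB-231 replicate 2 lay between the Hs578T replicates there.

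At ANXA1, a glucocorticoid-induced annexin that dampens inflammation through formyl peptide receptors, the promoter peak was 7434, 7208 and 7098 bp wide (chromosome 9, start 73151865, plus strand). At ANXA11, an annexin with a long tail that tethers RNA granules to lysosomes, it was 6005, 9793 and 6454 bp (chromosome 10, start 80205537, minus strand). At AHNAK it was 11234, 10793 and 7160 bp (chromosome 11, start 62546806, minus strand). At ANXA11 and AHNAK the Hs578T replicates differed more from each other than 1 of them did from MDA-MB-231 replicate 2. Where the peak was narrower, a further peak followed it. At ANXA11 that peak ran from +3853 to +6807 in MDA-MB-231 replicate 2 and from +4563 to +6610 in Hs578T replicate 2. At AHNAK it ran from +5602 to +7726 in Hs578T replicate 2. The remaining genes had peaks of ordinary size. ANXA6, the annexin with a duplicated core (chromosome 5, start 151157779, minus strand), had 3138, 3532 and 3344 bp, between the median and the 90th percentile. ANXA4, best known from epithelial cells (chromosome 2, start 69742134, plus strand), had 1551, 1774 and 2118 bp and was the only member near the median.

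Fold enrichment at these starts was moderate to high within each list. It was 18.8, 19.2 and 16.1 at ANXA2 and 20.5, 16.2 and 14.1 at ANXA3, at percentiles 92.4 to 95.7 of their lists. It was 13, 15.8 and 14.8 at ANXA5 and 11.7, 11 and 10.1 at ANXA11. It was 8.61, 11.2 and 10.0 at ANXA1, 12.8, 8.71 and 7.35 at AHNAK, and 11.4, 9.55 and 7.99 at ANXA4. The lowest values were those of ANXA6, with 8.21, 6.79 and 5.72, at percentiles 67.7, 63.5 and 59.6. Since fold enrichment is set against the background of the single library, its size was not compared between lists.

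The peaks of ANXA3 and ANXA5 reached into the gene rather than out of it. Downstream of the start lay 91.9, 94.4 and 94.9% of the ANXA3 peak and 93.7, 94.6 and 94.5% of the ANXA5 peak. The median over all promoter peaks was 54.6, 54.4 and 54.2%. At ANXA4 the peak lay mostly upstream, with 14.1, 7.61 and 21.3% of its length beyond the start. ANXA1 differed in another way. Its 300 bases around the start hold no CpG dinucleotide and 37.7% GC, yet all 3 large lists had a peak over the start, and its window of 2001 bp was covered whole. The 250 bases before that start are shown as the CpG-free counterpart of the AHNAK2 start (chr9:73151615-73151864, plus strand, GRCh38.p14).
ANXA1 start, upstream: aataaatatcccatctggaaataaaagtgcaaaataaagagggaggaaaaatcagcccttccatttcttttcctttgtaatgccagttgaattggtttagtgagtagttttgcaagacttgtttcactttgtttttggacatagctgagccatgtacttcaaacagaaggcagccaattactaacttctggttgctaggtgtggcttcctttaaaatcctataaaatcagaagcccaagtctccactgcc

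Beyond the starts, the locus of each gene was taken as its annotated body with 20 kb on either side, and the share of its bases covered by peaks was computed. Over protein-coding genes the median share was 3.74, 4.10 and 3.72% in the 3 large lists, and over the members it was 24.2, 29.1 and 24.7%. ANXA2 had 49.2, 62.4 and 55.8%, at percentiles 99.7 to 99.9 of genes. ANXA5 followed with 31.4, 41.7 and 44.5%. At ANXA1 the values were 26.7, 32.5 and 28.4%, at ANXA3 24.6, 31.0 and 30.6%, at ANXA9 27.8, 31.2 and 24.7%, and at AHNAK 23.8, 27.3 and 24.7%. The ranges of these 4 genes overlap over the large lists, although AHNAK was the lowest of them in MDA-MB-231 replicate 2, in Hs578T replicate 1 and, narrowly, in Hs578T replicate 2. The range of ANXA5 overlaps that of ANXA1 as well, but within each list ANXA5 was the higher. ANXA11 had 21.7, 21.3 and 21.4%, ANXA6 16.8, 18 and 16.4%, AHNAK2 15.5, 16.6 and 12.7%, and ANXA4 5.80, 6.80 and 7.14%. A share does not show that the gene itself was covered. At ANXA9 all of it lay in the flanks, in regions that overlap CERS2, MINDY1 or PRUNE1. At ANXA6 only 4.40, 7.41 and 5.49% of the gene body was covered. Its downstream flank held 13151, 12742 and 12036 covered bp, mostly in regions that overlap TNIP1. The annotated body of ANXA4 is 182688 bp long, the longest of the members, and whether its length bears on the share was not tested.

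**Figure D2:**
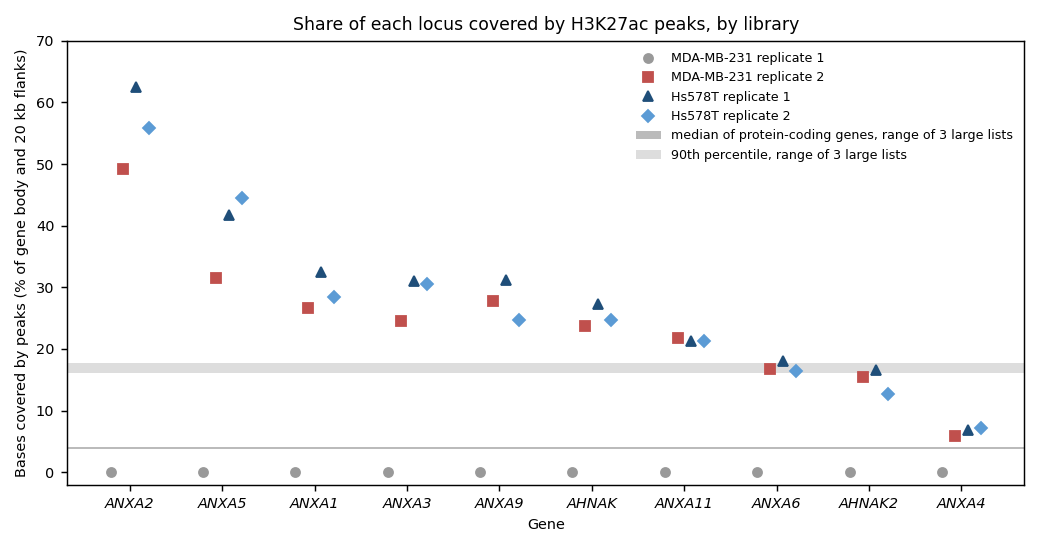
Share of each locus (annotated gene body and 20 kb on either side) covered by peaks, in percent, for the 10 genes and 4 libraries (1 point each), with bands for the median and the 90th percentile of protein-coding genes over the 3 large lists. ANXA2 lies highest at 49.2 to 62.4% and ANXA4 lowest at 5.80 to 7.14% in the large lists, and MDA-MB-231 replicate 1 is at 0 throughout.

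MDA-MB-231 replicate 2 was then set against the range of the Hs578T replicates. It lay below that range at 6 members (ANXA1, ANXA2, ANXA3, ANXA4, ANXA5 and AHNAK), within it at 3 (ANXA6, ANXA9 and AHNAK2) and above it at 1 (ANXA11). Of 16366 genes with covered bases, 43.5% lay below, 32.6% within and 23.9% above. At ANXA5 the Hs578T mean was 43.1% ± 2.01 (SD, n = 2) against 31.4% in MDA-MB-231 replicate 2, and at ANXA3 it was 30.8% ± 0.319 (SD, n = 2) against 24.6%. These differences exceed the spread between the Hs578T replicates, but with 1 informative MDA-MB-231 library the spread within that line is not known. The smallest two-sided p that an exact permutation of 2 against 2 libraries allows is 0.333, and no test was made.

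Overlapping peaks of the 3 large lists were merged into 77 regions over the 10 loci. Of these, 10 reached within 1 kb of a member's start, and 6 others held the start of a different protein-coding gene. By their midpoint, 32 lay in the annotated gene body outside the exons of the canonical transcript, and 4 at those exons. Another 12 and 13 lay in the upstream and downstream flanks. The annotated body takes in all transcripts, so some of the 32 lay outside the canonical one, as at ANXA4 from −90240 to −89272. The region at ANXA9 is counted with the members' starts and held the CERS2 start too. Among the 25 flank regions, 8 overlapped the body of another gene. The widest was in ANXA2, where a region of 34706 bp from +10804 to +45509 spanned most of the gene beyond the promoter peak, of which 25552, 34706 and 30339 bp were called in the single lists. In all, 71.8, 92.0 and 83.5% of the ANXA2 body was covered. The last exon was covered whole in Hs578T replicate 1, in part in Hs578T replicate 2 and not at all in MDA-MB-231 replicate 2. Another wide region was at ANXA5, from +16925 to +31958, across the 3′ end of the gene. It was called over 5578, 10704 and 15032 bp, and the last exon was covered whole in each of the large lists. This region held most of the difference in covered bases at ANXA5 between MDA-MB-231 replicate 2 and the Hs578T lists.

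**Figure D3:**
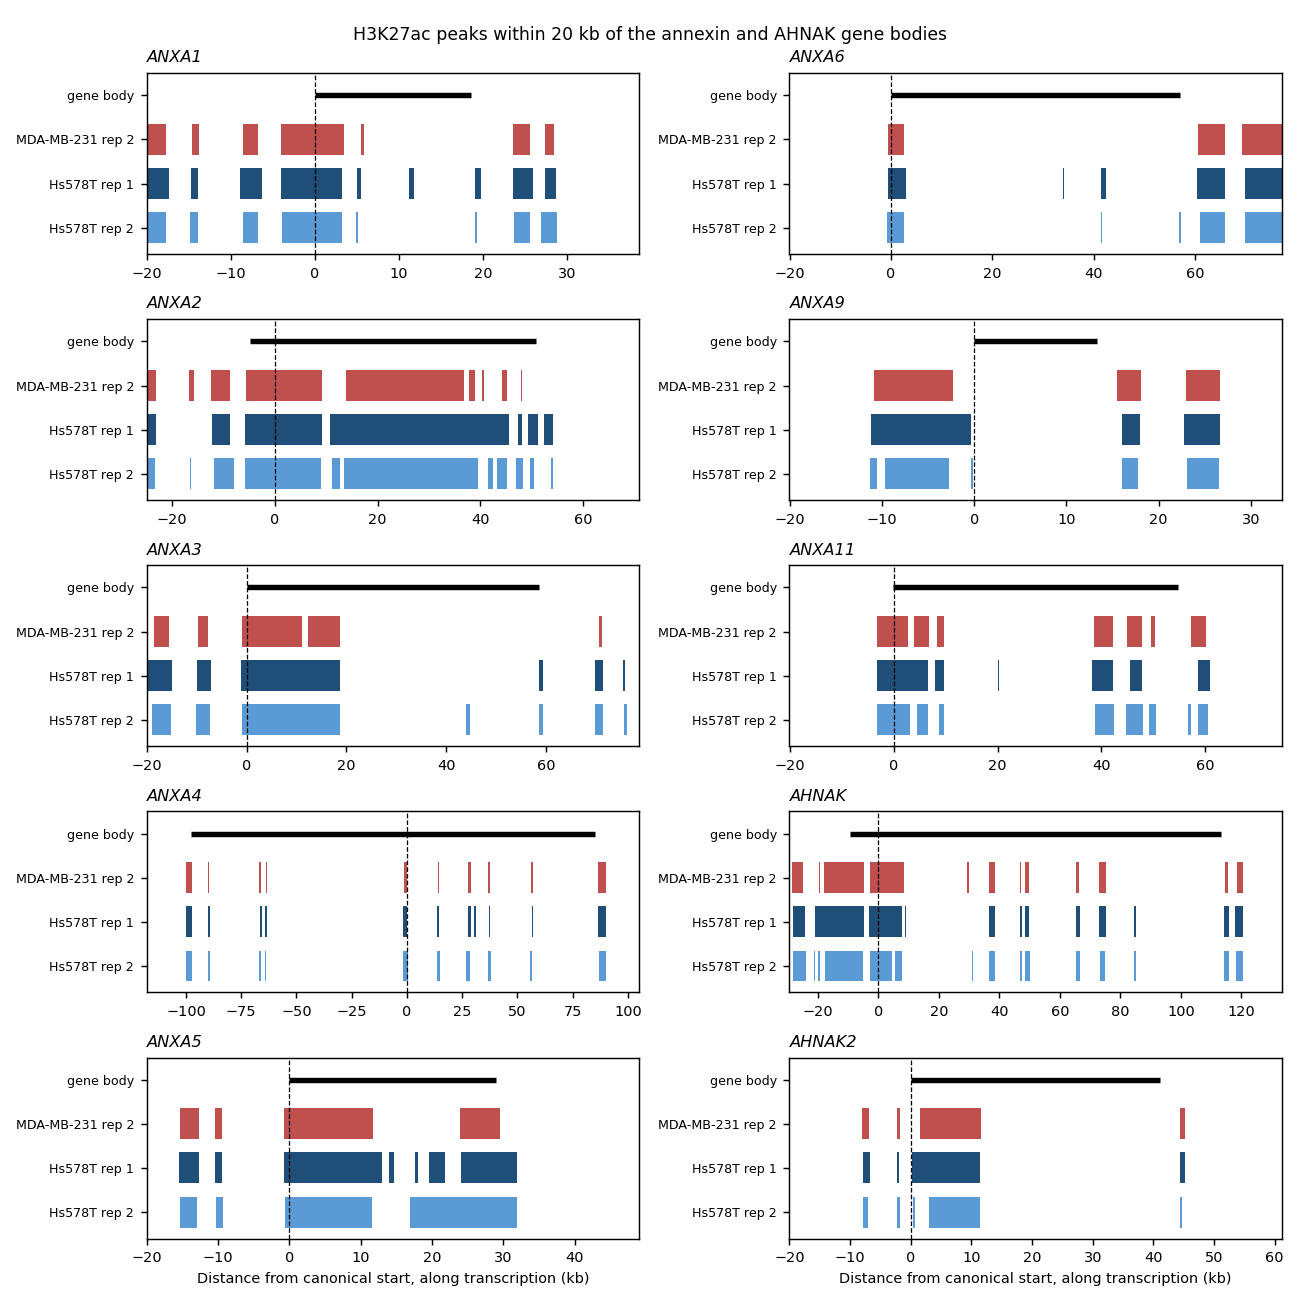
Peaks of the 3 large lists (rows) over the locus of each of the 10 genes, by distance from the canonical start in kb along the direction of transcription, with the gene body in black and the start as a dashed line. The ANXA2 body is covered over 71.8 to 92.0% of its length, the ANXA9 body carries no peak, and the large peaks recur at the same places in all 3 lists.

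Several strong regions lay upstream of the canonical start or beyond the gene's end. The highest fold enrichments in MDA-MB-231 replicate 2 and Hs578T replicate 1 were those of a region downstream of ANXA6, from +60395 to +65954, with 38.3, 34.6 and 29.9, at percentiles 99.8, 99.7 and 99.7 of the lists. It overlaps the annotated upstream end of TNIP1, an inhibitor of NF-κB signalling, whose canonical start lay in the next region (17.5, 14.8 and 12.1). Upstream of ANXA3, within the gene FRAS1, a region from −23234 to −15057 had 26.5, 25.6 and 32.4, the highest value in Hs578T replicate 2. AHNAK had a region of 16489 bp from −21277 to −4789 with 18.5, 17.7 and 16.4, which overlaps the annotated gene body and holds a further annotated AHNAK start at −9429. This region also overlaps the bodies of EEF1G and of a protein-coding gene without a symbol. ANXA1 had a region from −20502 to −17359 with 17.8, 18.3 and 19.2. The assignment of these regions to the members rests on distance alone. At ANXA4, where 12 regions were found, the strongest held the start of AAK1, a kinase gene, at −99936 to −97250 (20.9, 17.6 and 12.6), together with a distant RefSeq start of ANXA4 itself, at −98326.

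The giant coding exons of the AHNAK genes were nearly free of called peaks. The longest exon of AHNAK has 18173 bp, and a peak of MDA-MB-231 replicate 2 took up 694 bp of it, with none in either Hs578T replicate. The longest exon of AHNAK2 has 17547 bp, and no base of it was covered in any list. This was not particular to the AHNAK genes, as the longest exons of ANXA1, ANXA3, ANXA4 and ANXA9 were uncovered as well. Those of ANXA2, ANXA5, ANXA6 and ANXA11 were covered, in part or whole, in some or all of the large lists. At AHNAK, 15 regions were found, among them regions at +72882 to +75094 (10.4, 10.3 and 8.21) and +48449 to +49963 (8.12, 8.06 and 7.04). Both lay beyond the longest exon of AHNAK, in the annotated gene body but outside the exons of the canonical transcript. AHNAK2 had 4 regions, all called in each of the 3 large lists.

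Most regions were called in every large list. Of 77, 54 were called in all 3 (70.1%, against 74.8% of 50576 regions genome-wide). A further 9 were called in both Hs578T lists alone (11.7%, against 5.51%), 2 in MDA-MB-231 replicate 2 alone (2.60%, against 3.79%), 2 in MDA-MB-231 replicate 2 and Hs578T replicate 2 (2.60%, against 1.11%), and 6 and 4 in Hs578T replicate 1 or 2 alone (7.79 and 5.19%, against 6.69 and 4.69%). The 23 regions missing from at least 1 large list were weak and narrow: their fold enrichment ranged from 2.48 to 4.03, their median width was 694 bp and the widest had 2019 bp. The 54 shared regions ranged from 2.46 to 38.3, with a median width of 2712 bp. The 9 regions of both Hs578T lists alone lay at ANXA1, ANXA2, ANXA3, ANXA4, ANXA6 and AHNAK. Every region of ANXA9 and AHNAK2, 3 and 4 in number, was shared by the 3 large lists. At their starts this follows from the merging. The long peak of Hs578T replicate 1 joined the narrow start peak of Hs578T replicate 2 to the large peak. Those regions therefore count as shared although MDA-MB-231 replicate 2 covered no base of either start window.

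**Figure D4:**
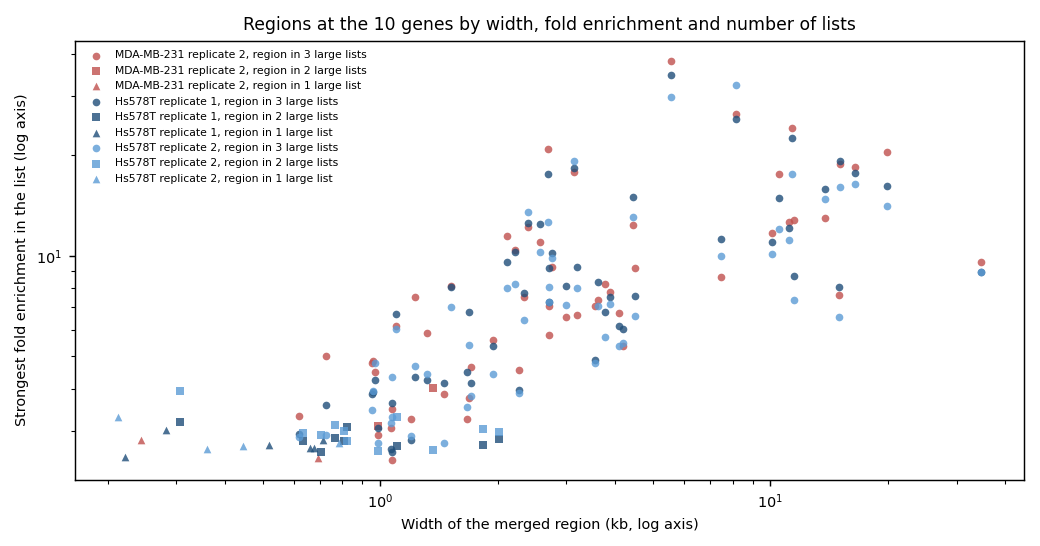
The 77 merged regions by width in kb and by the strongest fold enrichment within each large list (both log axes), with 1 point per region and list in which it was called and the symbol giving the number of lists. All squares and triangles, regions of 1 or 2 lists, sit at fold enrichments from 2.48 to 4.03 and widths up to 2019 bp.

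Agreement between lists was measured by the Jaccard index, which divides the bases that 2 lists share by the bases of either. Over the members its median was 0.787 for MDA-MB-231 replicate 2 with Hs578T replicate 1, 0.797 with Hs578T replicate 2, and 0.796 between the Hs578T replicates. The medians over all genes were 0.785, 0.766 and 0.783. Both pairs across lines exceeded the pair within Hs578T at ANXA6, ANXA9, ANXA11 and AHNAK2. Only 1 of them did at ANXA1 and ANXA4, and neither did at ANXA2, ANXA3, ANXA5 and AHNAK. How often each order occurs over all genes was not computed. At ANXA9 the index was 0.806 and 0.816 across lines and 0.759 within Hs578T. At AHNAK2 it was 0.775 and 0.833 across lines and 0.742 within Hs578T. At ANXA5 it was 0.676 and 0.745 across lines against 0.793 within Hs578T. The order thus differed from member to member, which is given as a description only.

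The rest of the family and the known partners were examined in the same way. Of the 5 other annexin genes, ANXA7, ANXA8 and ANXA8L1 were marked in each of the 3 large lists, and ANXA10 and ANXA13 in none. At ANXA10 a peak began beyond the window, at +2176, +1880 and +1922. ANXA8 and ANXA8L1 are near-identical copies, so reads could have been assigned to either. Of 16 partner genes, 10, 10 and 9 were marked (62.5, 62.5 and 56.3%), close to the 58.1, 58.2 and 56.4% of all genes. S100A10, the partner of ANXA2, had promoter peaks of 8894, 8944 and 9078 bp with fold enrichments of 27.3, 28.9 and 22.7. S100A11, which binds ANXA1, had 3844, 3749 and 4121 bp. MYOF, a membrane repair protein of the ferlin family, had 31158, 50710 and 28505 bp, and its relative DYSF had a narrow peak of 610 and 612 bp in the first 2 lists and none in Hs578T replicate 2. PLAT, which encodes the plasminogen activator that ANXA2 binds, was marked in each large list (5.20, 3.83 and 3.37). Not marked in any list were PLG, which encodes plasminogen, the formyl peptide receptor genes FPR1, FPR2 and FPR3, CAPN3 and PRX.

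AP-1 is a family of transcription factors that the study examined at enhancers, and its motif was counted at the members. It was present in 1 of 15 RefSeq promoters of the 10 genes, that of ANXA2, against 4.95% of 35116 promoters. In the central 300 bases of peaks away from starts it was present in 13 of 49, 11 of 55 and 15 of 63 peaks at the members (26.5, 20 and 23.8%), against 23.5, 22.4 and 21.9% of such peaks genome-wide. The number of motifs per 10 kb was higher inside peaks than in the rest of the locus at 10 of 10 members in each large list. The share of all gene loci where this holds was not computed. Pooled over members there were 3.83, 3.35 and 3.45 motifs per 10 kb inside peaks and 1.38, 1.42 and 1.44 outside, and over chromosomes 1 to 22 and X 3.75, 3.65 and 3.71 inside and 1.51 outside in each list. The members thus resembled the chromosomes in this respect. ANXA4 had the highest density inside peaks in each list, 6.97, 6.60 and 5.03 per 10 kb, from 9, 10 and 8 motifs, followed in each by AHNAK with 4.91, 4.51 and 4.73. At ANXA9 in Hs578T replicate 2 the densities inside and outside were 2.28 and 2.24, with 3 motifs inside peaks. A motif match is a description of the letters and not evidence of binding.

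**Figure D5:**
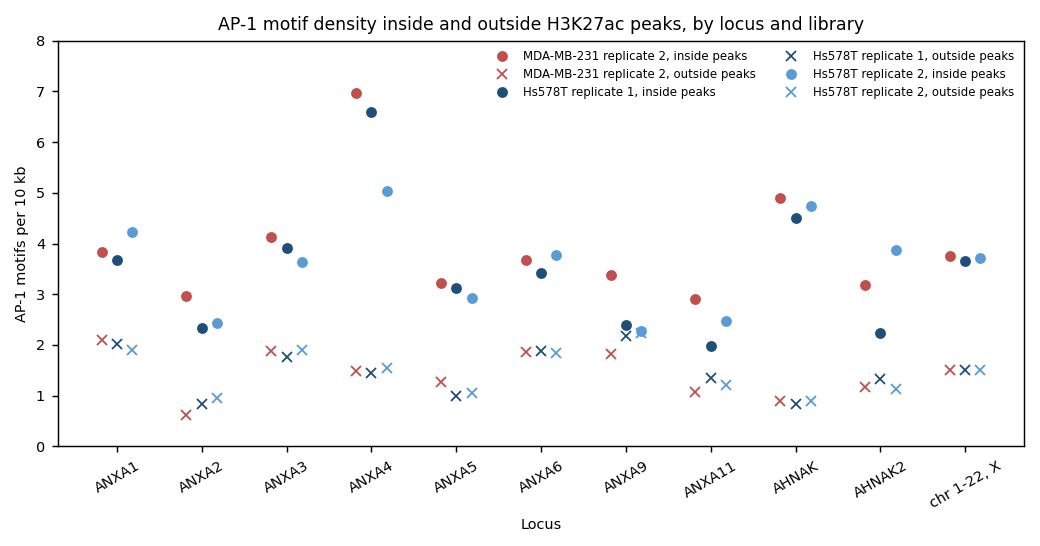
AP-1 motifs per 10 kb inside peaks (circles) and outside peaks (crosses) of each locus, for the 3 large lists, with the value over chromosomes 1 to 22 and X at the right. Circles lie above crosses at all 10 genes, from 6.97 at ANXA4 in MDA-MB-231 replicate 2 downwards.

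Short stretches around the motif nearest to the centre of the strongest region are shown for 3 members, with the motif in capitals, as examples of such sequence in regions called in all 3 large lists. The ANXA1 stretch is at chr9:73133064-73133214 (plus strand), outside the body of any protein-coding gene. The ANXA6 stretch is at chr5:151094631-151094781 (minus strand), between ANXA6 and TNIP1. The AHNAK stretch is at chr11:62557511-62557661 (minus strand), upstream of AHNAK. All are written 5′ to 3′ on the strand of the member, from hg38.
ANXA1 motif window: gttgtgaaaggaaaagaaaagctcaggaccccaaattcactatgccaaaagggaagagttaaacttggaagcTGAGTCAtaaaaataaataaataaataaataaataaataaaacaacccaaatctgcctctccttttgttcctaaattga
ANXA6 motif window: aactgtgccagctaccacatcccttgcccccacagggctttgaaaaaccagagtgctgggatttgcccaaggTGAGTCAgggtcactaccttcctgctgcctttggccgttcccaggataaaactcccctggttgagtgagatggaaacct
AHNAK motif window: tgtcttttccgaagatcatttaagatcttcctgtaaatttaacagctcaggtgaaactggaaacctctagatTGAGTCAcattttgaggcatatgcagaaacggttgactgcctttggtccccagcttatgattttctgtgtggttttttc

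Finally, the genes whose start window was covered most like those of ANXA9 and AHNAK2 were listed, as the summed difference in covered bases over the 4 lists. For ANXA9 (0, 0, 637 and 220 bp covered) the nearest were PDCD2L, PHB1 and ALPP, with summed differences of 36, 46 and 127 bp. For AHNAK2 (0, 0, 843 and 342 bp) they were MAN2B2, TSPAN6 and DNAI3, with 51, 116 and 173 bp. These values rest on 4 lists and describe the windows alone.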

How the data were processed

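Members and gene lists were chosen with earlier results of these data known. The authors trimmed reads with Trimmomatic, aligned them to hg38 with Bowtie2, called peaks per library with MACS2 against input, and removed blacklisted regions; versions and MACS2 settings are not given in the sources used here, and broad mode was inferred from the 9 columns. Each deposited peak carries a score, a ratio (fold enrichment against local background), a −log10 p and a −log10 q, as written by the authors. Read numbers were not used here, so depth is unknown, and a weak region can miss the threshold in 1 library. Blacklisted and masked bases count as uncovered.

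Groups and replicates came from the sample titles. Gene positions were those of GENCODE release 44 on hg38, canonical transcripts, chromosomes 1 to 22 and X. An overlap of 1 bp counted. Sequences came from hg38 and RefSeq promoters (GRCh38.p14), which matched 10 of 10 members. Calculations used Python 3.11.15 and NumPy 2.4.6, and counting functions were tested on simulated data. No tests were run. The genes named were the members, their listed partners, the nearest 3 genes by window coverage for ANXA9 and AHNAK2, and genes whose starts fell in the regions. FRAS1 and the stretches printed were picked after their values were seen. Alternatives were other windows, flanks, thresholds, start sets, merging, and leaving out each replicate.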

Additional observations from a re-analysis of the deposited data

How the results depend on the processing

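Of 52 recomputed values, 38 stayed within the spread between replicates, or within 1.5 times for counts. Another 14, the means over both MDA-MB-231 lists and the counts of MDA-MB-231 replicate 1, could hardly leave that range and were set apart. The count of 2 members marked in the Hs578T lists only, ANXA9 and AHNAK2, fell to 0 with a start window of 2.5 kb, with peaks of −log10 q of at least 5, with the strongest 50% of peaks, and, added after the data were seen, with at least 50% of the window covered. With the first, MDA-MB-231 replicate 2 reached both genes. With the next pair Hs578T replicate 2 no longer did, and with the last neither Hs578T list did. Leaving out each library in turn gave 2 to 10, the 10 without MDA-MB-231 replicate 2. Marked members numbered 8 or more in each large list under every setting run.

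The median covered share of the loci in Hs578T, 26.9%, became 18.7% with 50 kb flanks, 22.8% for gene bodies alone and 23.4% with the strongest 50% of peaks. In MDA-MB-231 replicate 2, 24.2% became 16.9% with 50 kb flanks. Leaving out each replicate gave 24.7 to 29.1% for Hs578T and 0 to 24.2% for MDA-MB-231. Taking the body of the canonical transcript was added after the data were seen and gave 28.8% and 25.6%.

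The median Jaccard index of the Hs578T pair, 0.796, became 0.804 with peaks within 1 kb merged, 0.775 at −log10 q of at least 5 and 0.806 with the strongest 50%. Across lines, 0.792 became 0.814 at −log10 q of at least 5 and 0.829 with the strongest 50%, so the order of the Hs578T pair and the pairs across lines turned under both. For MDA-MB-231 replicate 2 alone, the spread of the Hs578T replicates served as yardstick, and for Jaccard indices the spread over the 3 pairs.

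No paired analysis was possible because no result comes from a test and nothing in the labels ties libraries of the same number in the 2 lines together. The numbers of reads are unknown, so absence of a weak peak is not absence of the mark.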
